A study of Saccharomyces cerevisiae with 10 samples.

Results

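The genes described here are the acid phosphatases PHO5 (YBR093C), PHO3 (YBR092C), PHO11 (YAR071W) and PHO12 (YHR215W) of the budding yeast Saccharomyces cerevisiae. They were found by gene symbol in the platform annotation, which gives each of the 4 genes a single row, so 4 of the 6277 rows of the table are covered. They were picked from the contrast between the strains, where all 4 were higher in DJ28, so that contrast is given below as a description with no test. The series compared strain DJ28 with strain FY23 on 10 arrays, each carrying both strains in 2 dyes. On arrays 1 to 5 DJ28 was in Cy3 and FY23 in Cy5, and on arrays 6 to 10 DJ28 was in Cy5 and FY23 in Cy3. The series title names a mutant whose Ras/cAMP signalling is always on, and the sample labels carry PDE2, the gene of the high-affinity cyclic AMP phosphodiesterase, as a keyword. Beyond the strain names, the sources used here give no genotype and no growth medium, and so no phosphate or thiamine supply. Values are log2 ratios of DJ28 over FY23 with the median of each array set to 0.

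Which strain is in the numerator could not be settled from the sources. The ratio was read as Cy5 over Cy3 (red over green), which makes PDE2 lower in DJ28 (a log2 difference of -1.96, standard error 0.17, and 0 of 8 replicates above 0). Cells without this enzyme hold more cyclic AMP, which is why this reading was taken. It is likely but not settled. Under the opposite reading every "higher" below becomes "lower", and sizes and correlations stay.

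Acid phosphatases of this family are secreted glycoproteins that sit in the periplasm and cell wall and release phosphate from organic compounds outside the cell. PHO5 encodes the major enzyme, and PHO11 and PHO12 encode minor ones. These 3 genes are repressed in high phosphate and are switched on by the transcription factors Pho4 and Pho2 when phosphate runs short, through the inhibitor Pho81 and the Pho80-Pho85 kinase. PHO3 encodes an acid phosphatase made when phosphate is plentiful. It acts on thiamine phosphates and is repressed by thiamine. PHO11 and PHO12 are near-identical copies near the ends of 2 chromosomes, and PHO3 and PHO5 are close copies that stand side by side. Each of the 4 coding regions is 1404 bases long in assembly R64. The probe sequences are not used here, so signal that belongs to one of these genes and signal that reached it from a near-identical copy cannot be told apart.

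Arrays 3 to 10 hold between 5755 and 6048 values, array 2 holds 4342 and array 1 holds 2230. Arrays 6 and 7 correlated at r = 0.988, against at most 0.694 for other pairs, and their mean was counted as 1 replicate. This left 9 replicates, of which 5 carry DJ28 in Cy3 and 4 in Cy5. Nothing in the labels ties an array to its own culture, so the spread between replicates may be technical. PHO5, PHO3 and PHO11 had a value on all 10 arrays, and PHO12 lacked one on array 1. No cell of these genes lay at the table's upper limit.

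PHO5 showed the highest ratio of the 4 genes. With DJ28 in Cy3 its log2 ratio was 0.67 on array 1, 0.64 on array 2, 0.12 on array 3, 0.46 on array 4 and 0.69 on array 5. With DJ28 in Cy5 it was 1.63 on array 6, 1.63 on array 7, 1.44 on array 8, 0.98 on array 9 and 0.98 on array 10. All 10 values lie above 0, and the orientations do not overlap, since the highest value with DJ28 in Cy3 is below the lowest with DJ28 in Cy5. The share of all genes without such overlap was not computed. Differences between orientations are common in these data: 23.1% of all genes had an unadjusted p under 0.05 for limma's dye term. The mean ± SD was 0.51 ± 0.24 (n = 5) in the first orientation and 1.26 ± 0.33 (n = 4) in the second. The fitted difference, which balances the orientations, was 0.89 with a standard error of 0.11, or 1.85-fold.

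PHO11 and PHO12, the minor repressible enzymes, had nearly the same fitted difference. With DJ28 in Cy3, PHO11 stood at 0.78 on array 1, 0.94 on array 2, 0.07 on array 3, 0.36 on array 4 and 0.85 on array 5. With DJ28 in Cy5, PHO11 stood at 1.31 on array 6, 1.30 on array 7, 1.16 on array 8, 0.61 on array 9 and 0.63 on array 10. The orientations overlap for this gene: arrays 9 and 10 lie below arrays 1, 2 and 5. PHO12 stood at 0.67 on array 2, 0.009 on array 3, 0.45 on array 4 and 0.84 on array 5. In the swapped orientation it stood at 1.51 on array 6, 1.52 on array 7, 1.19 on array 8, 0.72 on array 9 and 0.76 on array 10. As for PHO11, array 3 was lowest and arrays 6 and 7 were highest, and here too the orientations overlap. With DJ28 in Cy3 the highest array was 2 for PHO11 and 5 for PHO12. The fitted difference was 0.76 (standard error 0.12, 1.69-fold) for PHO11 and 0.77 (standard error 0.13, 1.70-fold) for PHO12. Replicate by replicate, PHO11 minus PHO12 averaged -0.03 ± 0.15 (SD, n = 8), with 3 of the 8 differences above 0.

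PHO3, the enzyme made when phosphate is plentiful, had the lowest fitted difference, at 0.61 with a standard error of 0.11, or 1.53-fold. With DJ28 in Cy3 it gave 0.37 on array 1, 0.06 on array 2, -0.009 on array 3, 0.94 on array 4 and 0.67 on array 5. With DJ28 in Cy5 it gave 0.98 on array 6, 0.97 on array 7, 0.95 on array 8, 0.69 on array 9 and 0.66 on array 10. PHO3 was thus near 0 on arrays 2 and 3, and array 4 was its highest in that orientation, where PHO5, PHO11 and PHO12 were between 0.36 and 0.46. The spread with DJ28 in Cy3 (SD 0.40, n = 5) was wider than with DJ28 in Cy5 (SD 0.17, n = 4).

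**Figure D1:**
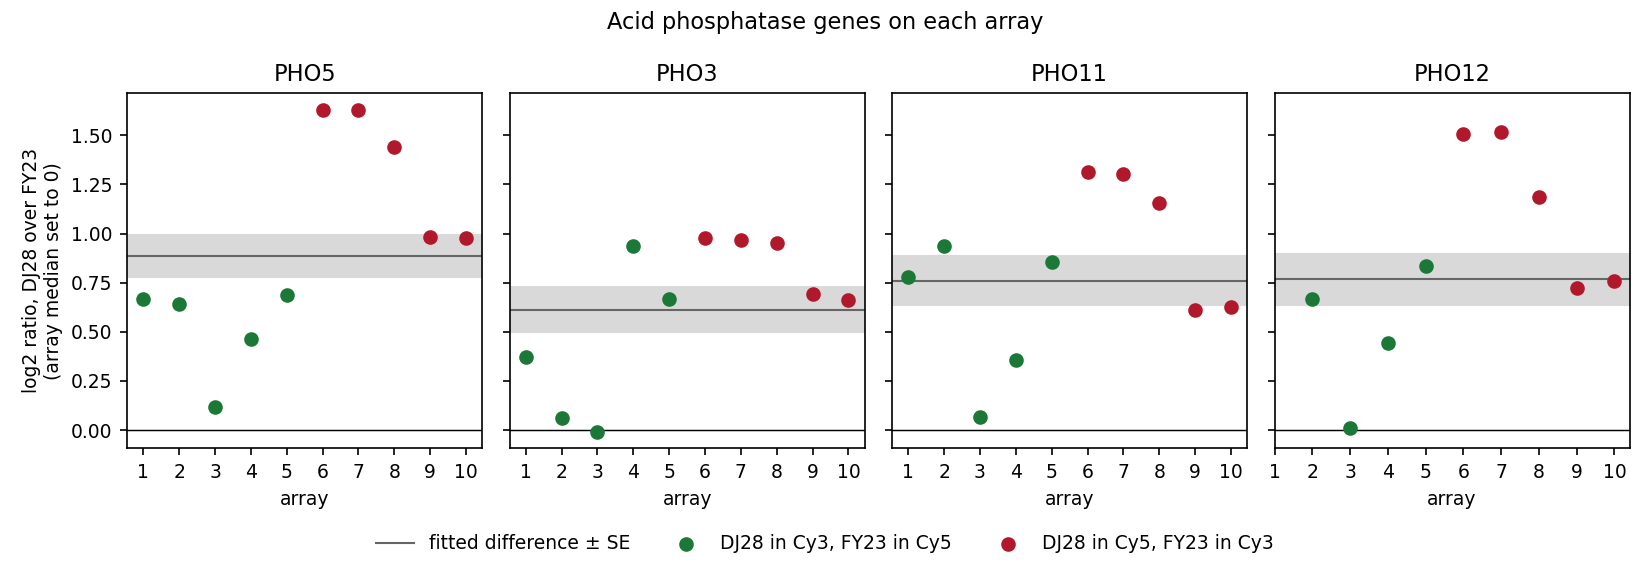
Log2 ratio of DJ28 over FY23 (vertical axis) on each of the 10 arrays (horizontal axis) for PHO5, PHO3, PHO11 and PHO12. Points are single arrays coloured by dye orientation, the line is the fitted difference and the band its standard error. All points but PHO3 on array 3 (-0.009) lie above 0. For PHO5 the orientations do not overlap, and the share of all genes like it in this was not computed.

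Array 3 gave the lowest value of all 4 genes, from -0.009 for PHO3 to 0.12 for PHO5. Among all values of that array, between 49.4% and 57.6% lay below those of the 4 genes, so there they sat near the middle of the array. PDE2 was also nearest to 0 on array 3, at -0.997, against -1.502 to -2.53 on the other arrays with a value. On array 8 the same shares were between 98.1% and 99.9%, so the 4 genes were near the top of that array. Without array 3 the fitted differences were 0.94 for PHO5, 0.66 for PHO3, 0.83 for PHO11 and 0.85 for PHO12.

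Of 5642 genes tested with limma, 31 (0.549%) passed an adjusted p of 0.05, with 5 (0.0886%) higher and 26 (0.461%) lower in DJ28. In totals over all genes, here and elsewhere, each row without a gene name counts as a gene. The 4 acid phosphatases are 4 of the 5 higher genes. Since they were picked from this contrast, that count is not evidence about them. How many of the 4 passed depended on the arrays and on the centring. With all arrays kept but not centred, 0 of the 4 passed (over all genes 4 of 5642). The number was 0 without arrays 1 and 2 (over all genes 6 of 5458) and 0 without arrays 4, 5, 9 and 10 (0 of 4199). It was 0 with DJ28 in Cy3 alone (0 of 5738) and 0 with DJ28 in Cy5 alone (2 of 5941). It was 1 in arrays 4, 5, 9 and 10 alone (30 of 5492) and 1 without arrays 6 and 7 (17 of 5292). With any single array left out it was between 1 and 4 (1 without array 2 or 10, 2 without array 5 or 9, 3 without array 1 or 8). Over all genes the count was then 10 to 79. All 4 passed with all arrays counted apart (79 of 5686 over all genes) and with array weights (113 of 5642). All 4 also passed with centring on genes measured on all 10 arrays (29 of 5642) and with upper-limit cells kept (30 of 5642). The same held with a separate dye term for arrays 4, 5, 9 and 10 (37 of 5642).

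The dye term, which was not used to pick the genes, asks whether the ratio differed between the orientations. It was above 0, red over green, for 4 of the 4 genes, against 2501 of 5642 (44.3%) over all genes. PHO5 had the largest, 0.37 (standard error 0.11, limma, adjusted p = 0.0825, unadjusted p = 0.00484). PHO12 followed with 0.28 (adjusted p = 0.23), PHO3 with 0.21 (adjusted p = 0.296) and PHO11 with 0.16 (adjusted p = 0.435). Among these genes 0 of 4 passed, against 172 of 5642 (3.05%) over all genes. An unadjusted p under 0.05 was found for 1 of 4, against 1306 of 5642 (23.1%) over all genes. PHO5 did pass with all 10 arrays counted apart (0.41, adjusted p = 0.0268) and where only genes measured on each of the 10 arrays were tested (0.37, adjusted p = 0.0372). The latter estimate is the same as in the setting used in the text, and its adjustment ran over 2039 genes.

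Next, the arrays were compared after the mean of their orientation had been removed from each gene. These deviations hold neither the strain nor the dye term. Their size does enter the standard error of the contrast that picked the genes, so they are not fully separate from that choice. The correlation of deviations between genes did not enter it. PHO5, PHO11 and PHO12 varied together from array to array, and PHO3 followed them less closely in the values, a contrast that was not itself tested. With DJ28 in Cy5, arrays 9 and 10 lay below the orientation mean in PHO5, PHO11, PHO12 and PHO3. Array 8 and the mean of arrays 6 and 7 lay above it. The permutation treats replicates of an orientation as exchangeable, so its p-values do not allow for such groups of arrays. PHO5 and PHO12 correlated at Pearson r = 0.987 over 8 replicates (two-sided exact permutation within orientation, p = 0.00347, adjusted over 6 pairs p = 0.0104). For PHO5 and PHO11 r was 0.958 over 9 replicates (exact p = 0.00347, adjusted p = 0.0104). For PHO11 and PHO12 r was 0.953 over 8 replicates (exact p = 0.00521, adjusted p = 0.0104). Array 3 was lowest and the mean of arrays 6 and 7 highest in PHO5 and in PHO12. These are the 2 replicates farthest from the median deviation of the first gene of each pair, with ratios written red over green. Without them r was 0.963, 0.912 and 0.918 for these pairs in the same order.

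Rank correlations depended on the direction in which the ratios were written. With DJ28 over FY23, Spearman's rho was 0.952 for PHO5 and PHO12 (exact permutation p = 0.00347, adjusted p = 0.0156). It was 0.867 for PHO5 and PHO11 (exact permutation p = 0.0115, adjusted p = 0.0229) and 0.976 for PHO11 and PHO12 (exact permutation p = 0.00521, adjusted p = 0.0156). With red over green, where the signs of arrays 1 to 5 turn, rho was 0.881, 0.80 and 0.833 in that order, and the adjusted p of the exact permutation test was 0.0625, 0.0694 and 0.0694. Pearson's r is the same either way.

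PHO3 gave lower correlations with each of the other genes. Its r was 0.462 with PHO5 (9 replicates, exact permutation p = 0.167, adjusted p = 0.251), 0.499 with PHO12 (8 replicates, exact permutation p = 0.252, adjusted p = 0.302) and 0.259 with PHO11 (9 replicates, exact permutation p = 0.551, adjusted p = 0.551). Spearman's rho of DJ28 over FY23 was 0.617 (exact permutation p = 0.0542, adjusted p = 0.0812), 0.524 (p = 0.24, adjusted p = 0.287) and 0.417 (p = 0.288, adjusted p = 0.288) in that order. With red over green rho was 0.617 (exact permutation p = 0.0542, adjusted p = 0.0812), 0.619 (p = 0.181, adjusted p = 0.217) and 0.217 (p = 0.634, adjusted p = 0.634). Without the 2 farthest replicates, picked red over green as above, r was 0.0322 with PHO5, 0.558 with PHO12 and 0.361 with PHO11. Those left out were array 3 and the mean of arrays 6 and 7 for PHO5, and arrays 3 and 4 for PHO12 and PHO11. Single arrays set these values: without array 4, where PHO3 was high and the other genes were not, r was 0.727 with PHO5, 0.769 with PHO12 and 0.659 with PHO11 (exact permutation, adjusted p = 0.0651, 0.0816 and 0.0816). Without array 3 it was 0.205, 0.224 and -0.115.

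**Figure D2:**
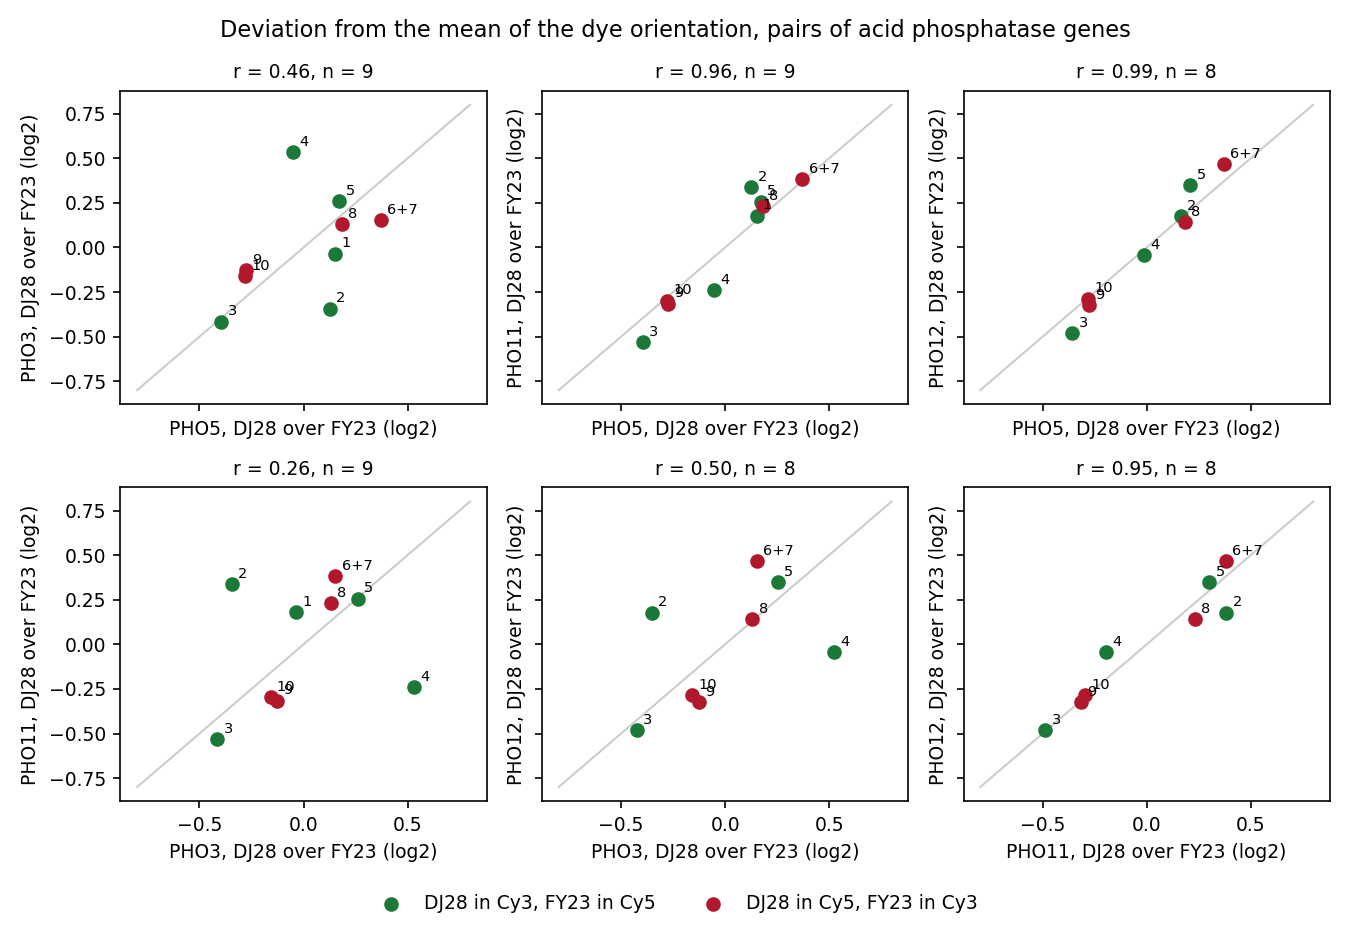
Deviation of each replicate from the mean of its dye orientation (log2, DJ28 over FY23), for the 6 pairs of the 4 genes, with array numbers beside the points (6+7 is the mean of arrays 6 and 7) and a grey line of equality. Pairs among PHO5, PHO11 and PHO12 lie close to the line (r from 0.953 to 0.987), and in pairs with PHO3 arrays 2 and 4 lie far from it.

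Shared array effects also reach other genes, so each r was set against those with all 4034 other genes that had a value on at least 8 replicates. The median r of PHO5 with these genes was 0.266, with quartiles at -0.15 and 0.623. By r with PHO5, PHO12 was number 2 and PHO11 number 27 of 4034, and PHO3 number 1478. By r with PHO11, PHO5 was number 5, PHO12 number 11 and PHO3 number 2015. By r with PHO12, PHO5 was number 2, PHO11 number 35 and PHO3 number 1360. PHO3 in turn had PHO12 at number 1081, PHO5 at 1198 and PHO11 at 1807, with a median r of 0.173 over all genes. A close match between arrays was therefore not particular to the family, and PHO3 was near the upper middle of the order.

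No label names a batch, but arrays 4, 5, 9 and 10 stand apart in the table, since each has cells at its upper limit. Within them PHO5 was at 0.78, PHO3 at 0.74, PHO12 at 0.69 and PHO11 at 0.61. Within the remaining arrays PHO5 was at 1.01, PHO11 at 0.91, PHO12 at 0.84 and PHO3 at 0.55. All 4 genes were thus higher in DJ28 in both sets. PHO5 led in each, while PHO3 was second in the first set and last in the other. Their standard errors lie between 0.10 and 0.18, and the change of order was not tested. Correlations within the sets were not computed, since neither holds 6 independent replicates. Those over all replicates therefore include any difference between the sets, and its share in them was not tested.

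**Figure D3:**
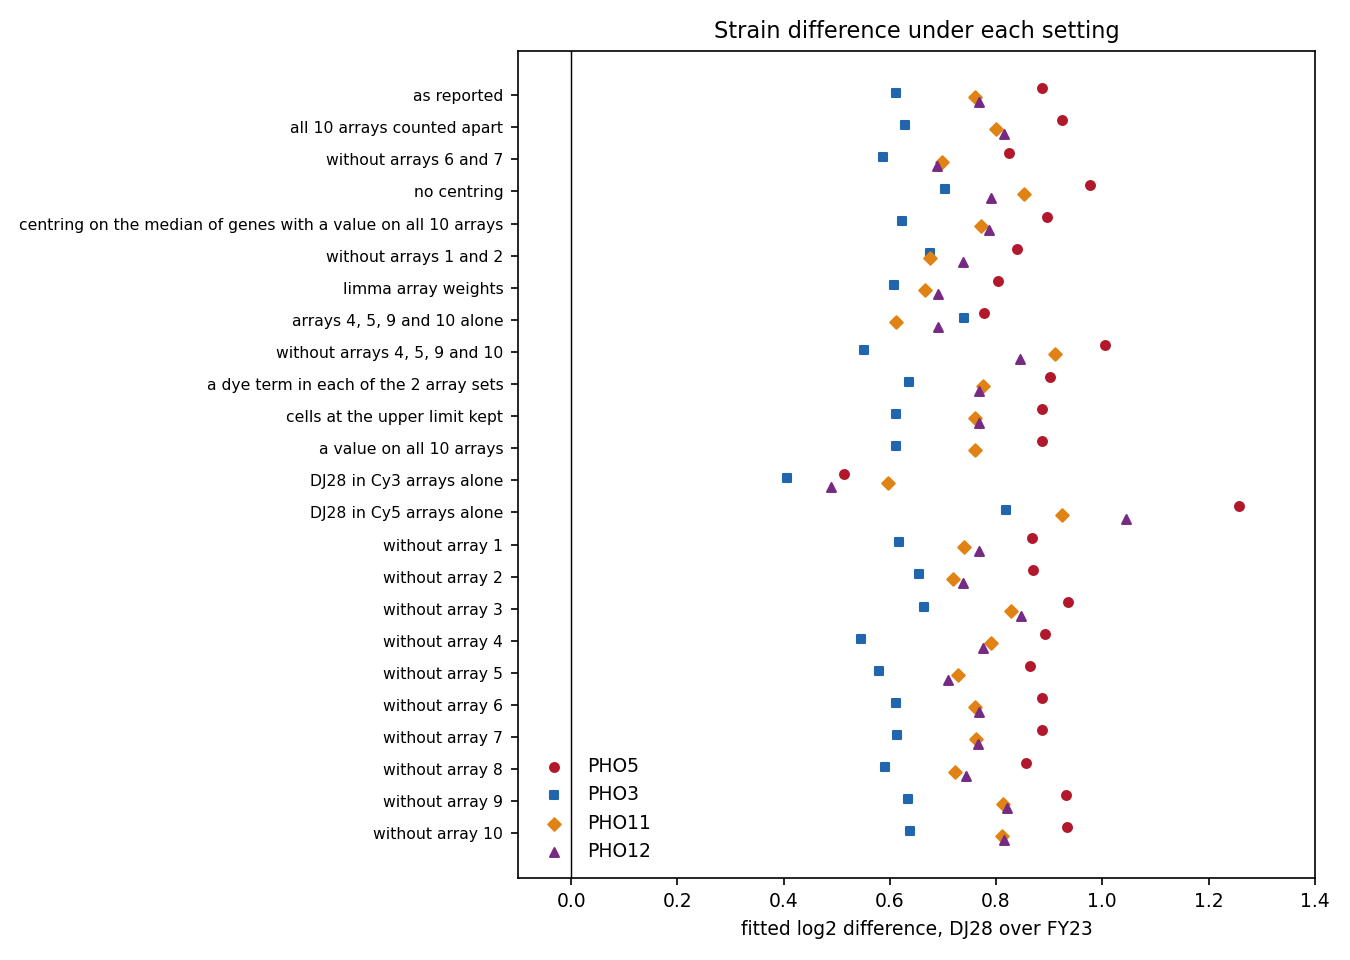
Fitted log2 difference, DJ28 over FY23 (horizontal axis), of the 4 genes under each setting of arrays and fit (vertical axis), where "as reported" is the setting used in the text. All values lie above 0, and the widest shift is between the orientations: PHO5 is at 0.51 with DJ28 in Cy3 alone and at 1.26 with DJ28 in Cy5 alone.

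PHO5 stood highest in the fitted order. It exceeded PHO3 on 8 of 9 replicates, by 0.26 ± 0.34 on average (SD), and array 4 was the exception, where PHO5 was lower by 0.48 (a difference of -0.48). PHO5 exceeded PHO12 on 6 of 8 replicates (mean 0.10 ± 0.15, SD) and PHO11 on 6 of 9 (mean 0.10 ± 0.25, SD). PHO3 exceeded PHO11 on 3 of 9 replicates and PHO12 on 1 of 8, with means of -0.15 ± 0.40 and -0.15 ± 0.34 (SD). These gaps come from the contrast that picked the genes and were not tested.

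DIA3 (YDL024C), whose protein resembles the acid phosphatases and takes part in invasive growth, did not share their difference. It was at -0.03 on the fitted log2 scale (standard error 0.12, limma, adjusted p = 0.926), and 3 of 8 replicates lay above 0. It gave -0.40 on array 2, -0.11 on array 3, 0.04 on array 4 and -0.24 on array 5. With DJ28 in Cy5 it gave -0.36 on array 6, -0.39 on array 7, -0.14 on array 8, 0.46 on array 9 and 0.50 on array 10. Arrays 6 to 8, where PHO5 was highest, are thus below 0 for DIA3.

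Around these genes, lists of the phosphate pathway and of thiamine genes were read in the same fit, with the 4 acid phosphatases left out. Over the lists together, 65 genes were tested, of which 0 passed limma's test and 13 (20.0%) had an unadjusted p under 0.05, against 753 of 5642 (13.3%) over all genes. Their median difference was 0.04, against 0.03 over all genes tested. Above 0 lay 36 of 65, against 3167 of 5642 (56.1%) over all genes. Without array 8, GPP2 and THI7 did pass, both lower in DJ28 (-0.58 with limma's adjusted p = 0.0307, and -0.53 with adjusted p = 0.0456).

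Among targets of Pho4 other than acid phosphatases, 0 of 17 tested genes passed and 2 had an unadjusted p under 0.05, with a median of -0.04 and 8 values above 0. The members farthest from 0 were GPP2, which encodes a glycerol-phosphate phosphatase, at -0.50 (standard error 0.11, adjusted p = 0.105, below 0 on 9 of 9 replicates), PHM6 at 0.30, PHO89, a sodium-phosphate cotransporter gene, at 0.25, and PPN1, a polyphosphatase gene, at 0.22. PHO84, which encodes the high-affinity phosphate transporter and is singled out here after its values were seen, was at -0.13 with a standard error of 0.13 (3 of 8 replicates above 0). PHO81, which encodes the kinase inhibitor, is itself a Pho4 target and is also singled out after its values were seen, was at -0.22 (standard error 0.10, adjusted p = 0.371). SPL2, likewise named after its values were seen, had a value on 6 replicates, too few in 1 orientation, and was not tested. PHO5, PHO11 and PHO12 are targets of the same factor, and their values of 0.76 to 0.89 lie above the highest of these 17 genes (0.30). Those 3 genes were picked for being high.

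Among phosphate signalling and regulator genes 0 of 18 passed, 4 had an unadjusted p under 0.05, and the median was -0.02. MSN5, the exportin gene for phosphorylated Pho4, was at -0.52 (adjusted p = 0.209) and PSE1, the importin gene for Pho4, at -0.30 (adjusted p = 0.353). PHO85, the kinase gene, was at 0.30 (adjusted p = 0.279), and PCL6, a cyclin gene of that kinase, was at 0.26. PHO4 and PHO2, the transcription factor genes, were singled out after the values were seen, and stood at 0.04 and -0.11. In phosphate transport 0 of 9 genes passed and 3 had an unadjusted p under 0.05, with a median of -0.13. The low-affinity transporter genes PHO87 and PHO90 were at -0.32 and -0.27, and SND3, formerly PHO88, was at 0.40 (adjusted p = 0.333). Among other phosphatases 0 of 8 passed and 2 had an unadjusted p under 0.05, GPP2 and DDP1 (0.34, a polyphosphate and inositol-pyrophosphate hydrolase gene). PPX1 was at 0.26 and PPN2 at 0.25, both polyphosphatase genes, and the list median was 0.23. Several of these genes stand in more than 1 list.

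The thiamine list was read because PHO3 is a thiamine-repressed gene. Of 22 tested genes 0 passed and 4 had an unadjusted p under 0.05, with a median of 0.04 and 14 values above 0. THI7, the thiamine transporter gene, was at -0.44 (standard error 0.12, adjusted p = 0.173, below 0 on 9 of 9 replicates) and its paralog THI72 at -0.38 (adjusted p = 0.262). THI73 was at -0.72 with a standard error of 0.56 on 6 replicates, and SNO1, of vitamin B6 synthesis, was at 0.34 (adjusted p = 0.535). THI4, a thiazole synthesis gene singled out after its values were seen, was at 0.01 with a standard error of 0.14. The genes THI5, THI11, THI12 and THI13, named for their sequence after the values were seen, are near-identical, and their values, from -0.04 to 0.26, may each hold signal of the others. PHO3, at 0.61, was above the highest value of this list, and was picked for being high.

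**Figure D4:**
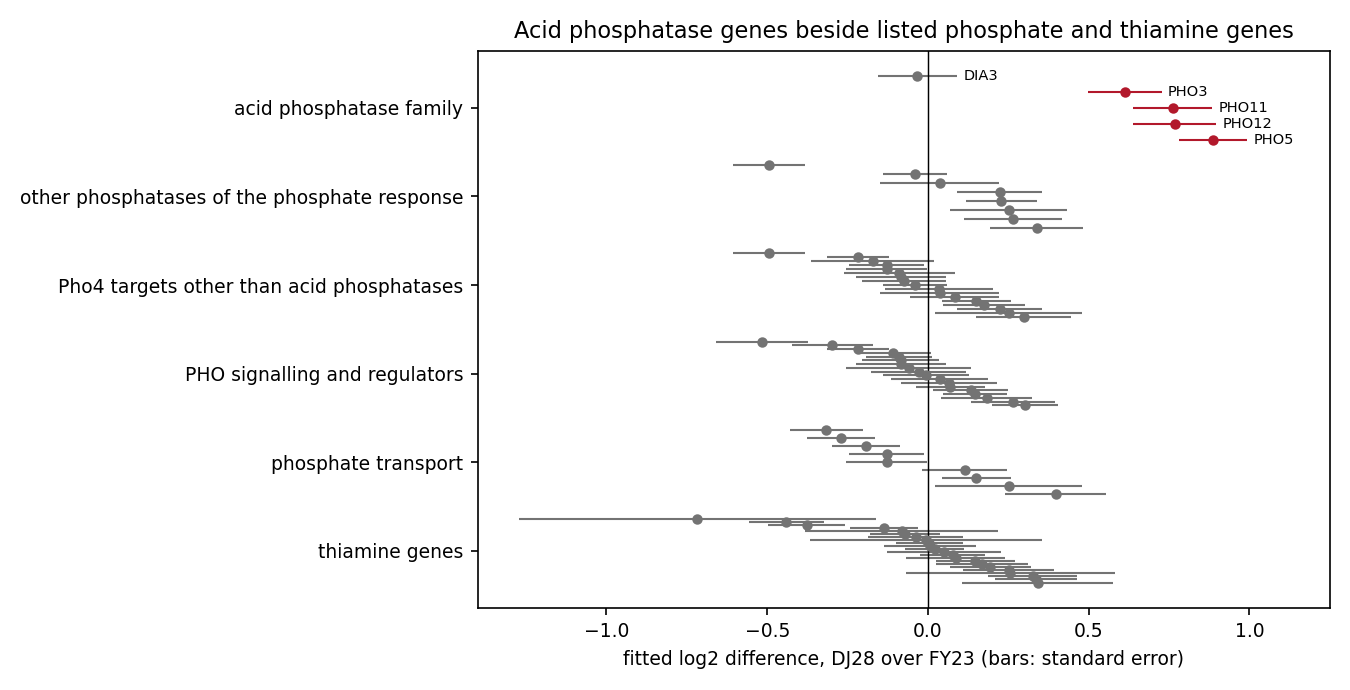
Fitted log2 difference, DJ28 over FY23, with its standard error (horizontal axis) for each tested gene of the acid phosphatase family and of 5 lists of the phosphate pathway and thiamine genes (vertical axis). The 4 acid phosphatases (red) lie between 0.61 and 0.89, DIA3 is at -0.03, and no other listed gene exceeds 0.40.

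PHO3 and PHO5 are each other's neighbours in assembly R64. None of the other tested genes within 2 places of the 4 acid phosphatases passed the test (limma, adjusted p of at least 0.519). Beyond PHO3 lie TIM12, a mitochondrial import gene, at -0.06 and YBR090C at 0.46 (standard error 0.30, adjusted p = 0.519). Beyond PHO5 lie PBY1 at -0.007 and RXT2 at -0.22 (adjusted p = 0.735). The genes before PHO11 are YAR068W at 0.13 and YAR066W at -0.04, and no gene follows it in the annotation used. After PHO12 come IMD2, an IMP dehydrogenase gene, at 0.03 (standard error 0.10, adjusted p = 0.928) and YHR218W at -0.03. YAR066W, YAR068W and IMD2 have close copies elsewhere in the genome, so their values are uncertain. The 2 genes annotated before PHO12 had no row under their symbols and were not tested.

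Genes with a pattern like that of the 4 acid phosphatases were sought by Pearson r between a gene's ratios, red over green, and the mean profile of the 4 genes, over 4035 genes with a value on at least 8 of the 9 replicates. The profile contains the 4 genes, and all points share the dye orientation of their array, so r is a description. PHO5 (0.997), PHO12 (0.996) and PHO11 (0.986) came first, and PHO3 (0.943) was number 10. The named genes most like the profile outside the family were ASP1, which encodes cytosolic asparaginase, at r = 0.978 over 8 replicates, HRR25, a casein kinase gene, at 0.945 over 8, and GIC2, an effector gene of Cdc42, at 0.944 over 9. RSP5, a ubiquitin ligase gene, was at 0.943 over 8, and SRL1, a mannoprotein gene, at 0.941 over 9. Their strain differences ran from 0.23 for RSP5 to 0.36 for GIC2, and 0 of these 5 passed (limma, adjusted p from 0.178 to 0.336). The acid phosphatases, with 0.61 to 0.89, were picked for being high. ASP1 was above 0 on 8 of 8 replicates and GIC2 on 6 of 9.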

How the data were processed

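The authors' deposited table holds 1 log2 ratio of the 2 dyes per row and array. The scale was read from the values, and the sources used here name no background correction, normalization or probe design. The columns are not centred, with array medians from -0.498 to 1.383. Rows were named through the platform annotation (5663 of 6277 rows), updated to assembly R64, which is used only for names, lengths and neighbours. The 614 rows without a name were kept, and each was treated as a gene. The 13 cells at the table's upper limit (cap) were left out, arrays were centred on their median, rows of a gene and arrays 6 and 7 were averaged, and genes with values on at least 3 replicates of each orientation (2 within array sets) entered limma (version 3.58.1, R 4.3.3) with a dye and a strain term. P-values are two-sided, and the number of arrays limits the precision. Benjamini-Hochberg adjustment ran over the 5642 genes in the setting used in the text. In each other setting it ran over the genes tested there, and for correlations over the 6 pairs. The 4 genes, the lists and the tests were chosen with earlier results of these data known. Named genes are the 4 acid phosphatases, PDE2, DIA3, the largest 4 differences of each list, the 2 nearest genes on each side, the 5 genes of most similar pattern, the markers of a and alpha cells, and those marked as named after their values were seen. The limma fit was tested on simulated data with independent noise and planted differences larger than those of the 4 genes. The other steps were not tested in this way. No column of values was left unused.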

Additional observations from a re-analysis of the deposited data

How the results depend on the processing

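The 4 strain differences stayed above 0 under each setting that gave them a value (23 for PHO5, PHO3 and PHO11, and 22 for PHO12, which lacks a value on array 1). Each moved by less than its SD over all replicates (0.47 for PHO5), but that SD itself holds the shift between orientations. PHO5 moved from 0.89 to 0.51 with DJ28 in Cy3 alone and to 1.26 with DJ28 in Cy5 alone. These moves are larger than its SDs within the orientations (0.24 and 0.33). The count of 31 genes was 79 with all 10 arrays counted apart, 113 with array weights, 17 without arrays 6 and 7, 6 without arrays 1 and 2 and 4 with no centring. It was 0 without arrays 4, 5, 9 and 10, 0 with DJ28 in Cy3 alone, 2 with DJ28 in Cy5 alone, and 10 to 79 with single arrays left out (19 without array 2, 79 without 8, 12 without 9, 10 without 10). The dye term of PHO5 passed with all arrays apart (0.41), on genes measured on each of the 10 arrays (0.37) and with no centring (0.93), where PHO3 (0.76), PHO11 (0.72) and PHO12 (0.90) also passed, as each array's own offset then enters the dye term. Within arrays 4, 5, 9 and 10 that of PHO3 was -0.0635 (adjusted p = 0.721, and the cause was not tested). With no centring the offsets also enter both genes of a pair, and PHO3 passed with PHO5 (r = 0.911), PHO11 (0.88) and PHO12 (0.894). Leaving out single arrays gave r from -0.115 to 0.659 for PHO3 and PHO11. Of the list genes outside the family, GPP2 passed, lower, in 4 settings (all arrays apart, array weights, genes measured on each array, without array 8) and THI7, lower, in 2 (array weights, without array 8). Loess was not run, as it needs intensities. No paired analysis was possible because the array numbers are not shared between the orientations.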

Other observations

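Markers of the mating types were read in the same fit, since a difference in mating type would reach other genes. Of the 6 genes specific to a cells, 0 passed limma's test, 4 had an unadjusted p under 0.05 (over all genes 753 of 5642, or 13.3%) and 6 lay above 0 (over all genes 3167 of 5642, or 56.1%), from 0.01 for STE6 to 0.60 for MFA1 (adjusted p = 0.224). MFA2 was at 0.50 (above 0 on 6 of 9 replicates) and AGA2 at 0.39 (4 of 8), with dye terms of 0.69 and 0.91. STE2 was at 0.29 (8 of 9) and BAR1 at 0.21 (7 of 9), with dye terms of 0.14 and -0.02. MFA1 was above 0 on 5 of 8 replicates and STE6 on 2 of 6, with dye terms of 0.82 and 0.43. The 3 tested genes specific to alpha cells, MF(ALPHA)1, STE3 and SAG1, had 0 fitted differences above 0, from -0.16 to -0.003, and 0 had an unadjusted p under 0.05. By replicate, MF(ALPHA)1 was above 0 on 5 of 9, STE3 on 4 of 9 and SAG1 on 3 of 9. The alpha mating-type locus genes, named after their values were seen, were at 0.12 for MATALPHA2 (above 0 on 6 of 7 replicates) and -0.64 for MATALPHA1 (3 of 7, standard error 0.57). Over the whole list of mating-type and haploid markers 0 of 15 tested genes passed, 6 had an unadjusted p under 0.05 and 10 lay above 0, with a median of 0.12. Their part in the difference of the acid phosphatases was not tested.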
